A study of Mus musculus with 6 samples.

Results

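The 10 genes described here encode the machinery that couples excitation to contraction in skeletal muscle and the calcium store that it empties. They are *Cacna1s*, *Cacnb1* and *Stac3* of the voltage sensor, *Ryr1*, *Trdn* and *Jph2* of the release site, *Casq1* and *Casq2* of the store, and *Atp2a1* and *Atp2a2* of the calcium pumps. They were taken by symbol, and all 10 were found among the 14548 genes of the expression tables. The expression values are FPKM, the fragments on a gene divided by its length and by the size of its library. The study profiled mRNA of C2C12 cells, a mouse line of myoblasts, in 3 WT libraries and 3 MSTN-KO libraries. The MSTN-KO libraries all came from C11, a line edited with CRISPR/Cas9 at exon 3 of *Mstn*, the gene of the growth inhibitor myostatin, so the mutant group stands for 1 edited line. The labels give C11 as strain for the WT libraries as well, and the genotype label set the groups. Both groups are labelled as myoblasts of skeletal muscle, grown in medium with fetal bovine serum according to the study's methods, and no medium to induce differentiation is described for these libraries. The labels do not say that replicates were separate cultures, so p-values measure only the spread between these libraries, which may be technical.

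In skeletal muscle, an action potential runs down the T-tubules and moves the voltage sensor, the L-type calcium channel whose pore and sensor are the *Cacna1s* product. The sensor touches the ryanodine receptor in the facing membrane of the sarcoplasmic reticulum and opens it, and calcium leaves the store to start contraction. Calsequestrins hold the calcium inside the store, and SERCA pumps return it from the cytosol. Myoblasts carry little of this machinery, and its genes are switched on as the cells leave the cell cycle and fuse.

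*Mstn* itself lay between 0 and 0.0586 FPKM in the 6 libraries and could not check the labels. The library sums ran from 723705 to 999579 FPKM, and the depth estimated from the smallest values ran from 0.855 to 1.11 times that of WT replicate 1. The myoblast genes *Myod1*, at 90.8 to 168 FPKM, and *Des*, at 325 to 807 FPKM, were expressed in all 6 libraries, and *Myod1* and *Des* were lower in MSTN-KO (limma adjusted p = 0.00986 and 0.000995). Of the other myoblast markers in the tables, *Pax7* was higher in MSTN-KO, at 2.19 FPKM compared with 1.02 FPKM in WT (limma adjusted p = 0.0415), and *Myf5* and *Met* did not pass (limma adjusted p = 0.784 and 0.179). *Pecam1*, *Cdh5* and *Kdr* of endothelial cells stayed at or below 0.0542 FPKM, each at 0 in at least 1 library.

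All 10 genes had lower FPKM in each MSTN-KO library than in any WT library, where 17.1% of the 14548 genes did so. For *Trdn* this order rests on an estimated 1, 2 and 3 fragments in WT and 1, 0 and 0 in MSTN-KO. The narrowest margins of the 10 were those of *Jph2*, *Atp2a2* and *Stac3*. Their lowest WT library was 1.04, 1.07 and 1.10 times the highest MSTN-KO library. Of the 8 that passed the filter of at least 1 FPKM in at least 1 library, 6 fell at a limma adjusted p under 0.05, against 8.96% of the 10837 genes tested, and none rose, against 8.78%. The genes that fell were *Atp2a1*, *Casq2*, *Stac3*, *Ryr1*, *Cacnb1* and *Cacna1s*, while *Jph2* and *Atp2a2* did not pass, and *Casq1* and *Trdn* were too low to be tested. *Cacna1s* and *Casq2* reached 1 FPKM only in WT libraries and so were tested because of the group in which they were higher. The median change of the tested members was -0.81 on the log2(FPKM + 1) scale, and that of all genes tested was -0.00078. The bulk libraries cannot tell fewer cells with this machinery from less RNA per cell.

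**Figure D1:**
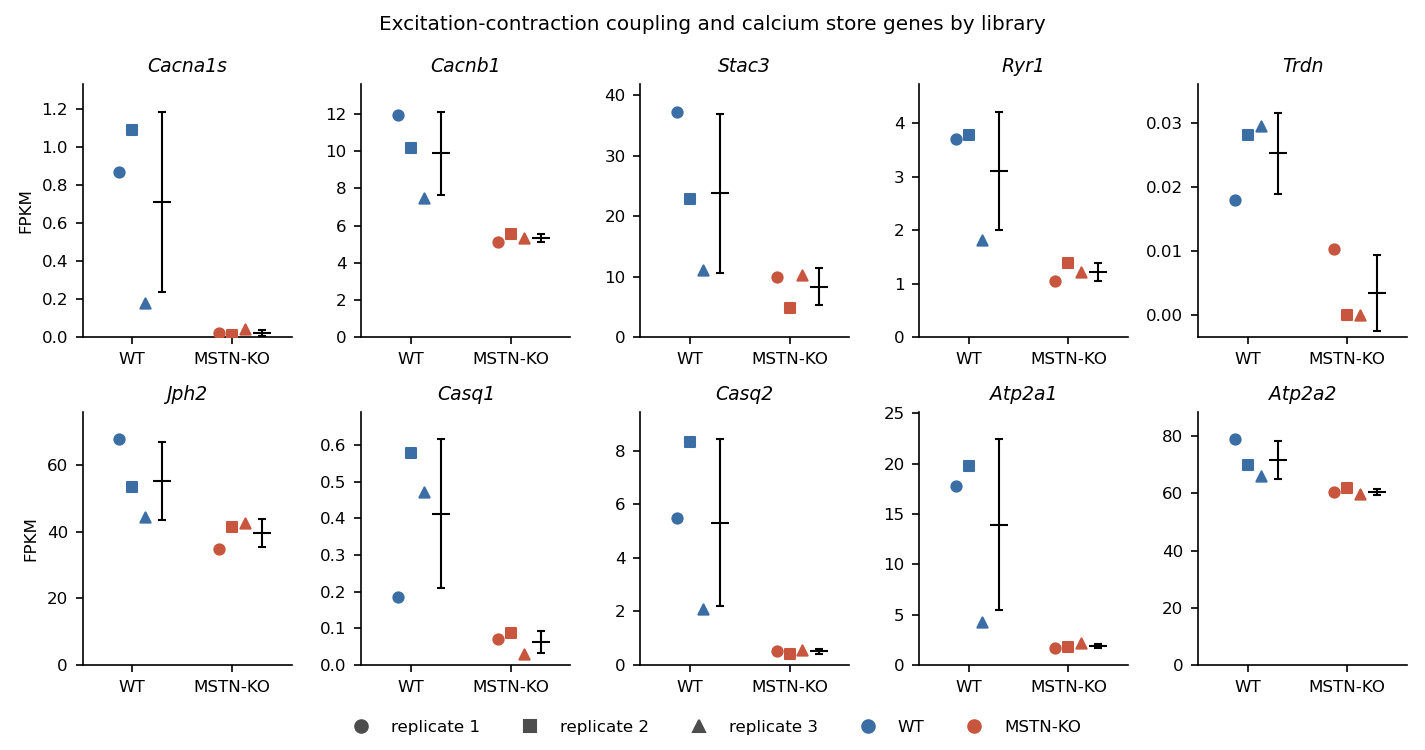
FPKM of the 10 genes in each library, with 1 panel per gene and its own vertical axis in FPKM. Blue points are WT and red points MSTN-KO, shapes give the replicate, and the bars give mean ± SD over 3 libraries. In every panel the 3 MSTN-KO points lie below the 3 WT points, and WT replicate 3 is often the lowest of the WT points, as for *Atp2a1* at 4.23 FPKM.

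The cutoffs of the study were also applied to the limma fit of log2(FPKM + 1), so the calls need not match its own. The cutoffs were a log2 fold change below -1 and a p without adjustment under 0.05. *Atp2a1*, *Casq2* and *Stac3* passed, 3 of the 8 tested, where 2.30% of genes did. *Ryr1* and *Cacna1s* missed the fold cutoff, at -0.85 and -0.70. With 0.1 added to FPKM in place of 1, their log2 fold changes were -1.22 and -2.48, so this outcome depended on the added value. *Cacnb1*, *Jph2* and *Atp2a2* missed the fold cutoff with either added value. Without the filter on low values, 5 of the 10 passed the adjusted p, namely *Atp2a1*, *Casq2*, *Ryr1*, *Cacnb1* and *Casq1*, where 6.23% of 14548 genes did. When each library was scaled to a sum of 1000000, all 8 tested members were lower, but 21.8% of all genes were then also lower and the median of all genes moved to -0.26. Under that scaling the calls over all genes were 2367 lower and 350 higher, compared with 971 lower and 952 higher for FPKM as deposited.

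The promoters of these genes were read from RefSeq (GRCm38.p6, 250 bases before to 50 after the start of transcription), which held windows for 7 of the 10. They are shown because several of the genes fell together, and because E-boxes, the sites of MyoD and myogenin, and the sites of MEF2 and TEAD factors are known elements of muscle promoters. Capitals mark matches to CAGCTG (the same on both strands), to CATTCC (the MCAT element, here on the other strand) and to the MEF2 motif, all searched on both strands. No printed matches overlap. All the printed windows hold a match. The windows without one are not printed, and neither are the *Casq1* window and the further *Jph2* window, which hold matches.
*Cacna1s*, chr1:136052561-136052860, plus strand: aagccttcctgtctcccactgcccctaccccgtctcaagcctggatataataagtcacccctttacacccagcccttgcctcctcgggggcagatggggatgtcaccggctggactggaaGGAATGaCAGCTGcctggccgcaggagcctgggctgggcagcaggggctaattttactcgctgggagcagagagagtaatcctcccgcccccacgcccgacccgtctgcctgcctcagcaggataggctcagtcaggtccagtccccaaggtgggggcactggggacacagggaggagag
*Jph2*, chr2:163397924-163398223, minus strand: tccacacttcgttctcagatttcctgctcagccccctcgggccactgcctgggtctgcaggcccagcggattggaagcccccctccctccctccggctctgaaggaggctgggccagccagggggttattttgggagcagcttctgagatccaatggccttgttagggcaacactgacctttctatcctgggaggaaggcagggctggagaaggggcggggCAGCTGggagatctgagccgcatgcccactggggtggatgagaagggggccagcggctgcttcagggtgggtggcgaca
*Casq2*, chr3:102086165-102086464, plus strand: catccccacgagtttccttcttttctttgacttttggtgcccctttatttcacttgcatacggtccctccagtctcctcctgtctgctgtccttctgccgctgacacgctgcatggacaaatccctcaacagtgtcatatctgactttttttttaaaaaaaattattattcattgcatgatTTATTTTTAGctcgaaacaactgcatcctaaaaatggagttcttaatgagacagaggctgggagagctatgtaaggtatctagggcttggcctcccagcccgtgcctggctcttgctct
*Atp2a1*, chr7:126463024-126463323, minus strand: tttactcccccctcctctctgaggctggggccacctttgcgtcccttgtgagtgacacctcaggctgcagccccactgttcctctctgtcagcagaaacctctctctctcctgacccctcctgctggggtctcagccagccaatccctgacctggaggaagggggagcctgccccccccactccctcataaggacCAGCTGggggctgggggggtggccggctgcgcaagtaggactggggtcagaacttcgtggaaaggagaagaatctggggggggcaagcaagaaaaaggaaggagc
The CAGCTG match began at -123 from the start in *Cacna1s*, at -29 in *Jph2* and at -55 in *Atp2a1*, and the 4 genes with such a match were these and *Casq1* (at -195). Of these, *Cacna1s* and *Atp2a1* were called lower, *Jph2* did not pass and *Casq1* was not tested. Some genes had more than 1 window, and a further *Jph2* window held the same match at -9. By window, 5 of the members' 9 held CAGCTG, with the same *Jph2* match counted in both its windows. Among all 32851 windows of this length, 16.3% did. The MCAT match of *Cacna1s* began at -130, and 14.7% of windows held one. The MEF2 match of *Casq2* began at -69, and 3.19% of windows held one. *Casq1* also held the second E-box form searched, CACCTG, read on the other strand from -67, a form in 20.2% of windows. The windows of *Ryr1* and *Cacnb1* held none of the 4 motifs. RefSeq windows for *Atp2a2*, *Stac3* and *Trdn* were not matched. A match describes the letters only and is no measurement of binding.

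*Cacna1s* (ENSMUSG00000026407, chromosome 1, 136052750 to 136119822, plus strand of GRCm38) encodes the pore and voltage sensor of the skeletal L-type calcium channel. *Cacna1s* measured 0.867, 1.09 and 0.181 FPKM in WT replicates 1 to 3, against 0.0222, 0.00930 and 0.0405 FPKM in MSTN-KO replicates 1 to 3. The first 2 WT replicates were highest, WT replicate 3 was lower, and all MSTN-KO libraries were near 0 without overlap. The MSTN-KO values correspond to an estimated 2, 1 and 5 fragments, compared with 96, 134 and 22 in WT. The log2 fold change was -0.70 (SE 0.22, limma adjusted p = 0.0412), and this call was the least stable of the 6. With a pseudocount of 0.1 the change was -2.48 (limma adjusted p = 0.0214). The gene failed the filter without WT replicate 2, and it failed a filter on a mean of at least 1 FPKM. The adjusted p was 0.151 without WT replicate 1, 0.0808 without MSTN-KO replicate 1, 0.0550 without MSTN-KO replicate 2 and 0.0983 without MSTN-KO replicate 3. It was 0.0580 with no filter, 0.138 with quantile normalization and 0.0505 with scaling by the percentile 75. Exons of *Gm37759* on the other strand overlap 1309 of the 6550 exon bases of *Cacna1s*, with an exact shared stretch of 868 bases, so reads there are uncertain. Chromosome 1, which carries *Cacna1s* and *Casq1*, had a median change of -0.25 over 627 tested genes, while the other chromosomes with members that were tested lay between -0.06 and 0.11.

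*Cacnb1* (ENSMUSG00000020882, chromosome 11, 98001508 to 98023034, minus strand) encodes the beta subunit that carries the voltage sensor to the membrane. *Cacnb1* measured 12.0, 10.2 and 7.51 FPKM in WT replicates 1 to 3, against 5.13, 5.57 and 5.31 FPKM in MSTN-KO replicates 1 to 3. The WT libraries spread more than the MSTN-KO libraries, and the lowest WT library stood 1.35 times above the highest MSTN-KO library. The mean was 9.89 ± 2.24 FPKM in WT and 5.34 ± 0.218 in MSTN-KO (SD, n = 3 each), which gave -0.76 as log2 fold change (SE 0.17, limma adjusted p = 0.00799). It passed in all 6 fits that left out 1 library. *Cacnb3*, a beta subunit of broader use, was at 57.4 ± 7.03 FPKM in WT and 55.0 ± 5.17 in MSTN-KO (SD, n = 3 each, limma adjusted p = 0.788).

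*Stac3* (ENSMUSG00000040287, chromosome 10, 127501686 to 127508823, plus strand) encodes an adaptor that binds the voltage sensor and is needed for its coupling to the release channel. *Stac3* measured 37.3, 22.8 and 11.2 FPKM in WT replicates 1 to 3, against 9.99, 4.88 and 10.2 FPKM in MSTN-KO replicates 1 to 3. WT replicate 1 was highest by far, and WT replicate 3 stood only 1.10 times above the highest MSTN-KO library, so the groups were apart by a narrow margin. The log2 fold change was -1.31 (SE 0.34, limma adjusted p = 0.0182). The adjusted p was 0.0953 without WT replicate 1, 0.0519 without MSTN-KO replicate 3 and 0.0969 with no filter on low values. *Stac2*, a paralog also known from neurons, was at 73.0 ± 8.57 FPKM in WT and 78.6 ± 7.63 in MSTN-KO (SD, n = 3 each, limma adjusted p = 0.609).

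*Ryr1* (ENSMUSG00000030592, chromosome 7, 29003344 to 29125179, minus strand) encodes the ryanodine receptor, the calcium release channel of the sarcoplasmic reticulum. *Ryr1* measured 3.71, 3.79 and 1.83 FPKM in WT replicates 1 to 3, against 1.04, 1.40 and 1.22 FPKM in MSTN-KO replicates 1 to 3. WT replicate 3 lay between the other WT libraries and the MSTN-KO libraries and did not reach down to the latter. The mean was 3.11 ± 1.11 FPKM in WT and 1.22 ± 0.175 in MSTN-KO (SD, n = 3 each), which gave -0.85 as log2 fold change (SE 0.21, limma adjusted p = 0.0144). The adjusted p rose to 0.0724 without WT replicate 1 and to 0.0705 without WT replicate 2. Transcripts of *Ryr1* share exact stretches of 50 or more bases with those of 18 other annotated genes, the longest of 324 bases with *Gm26604*, so reads on those stretches are uncertain.

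*Jph2* (ENSMUSG00000017817, chromosome 2, 163336242 to 163397993, minus strand) encodes a junctophilin, which ties the T-tubule to the sarcoplasmic reticulum. *Jph2* measured 67.6, 53.2 and 44.4 FPKM in WT replicates 1 to 3, against 34.7, 41.4 and 42.5 FPKM in MSTN-KO replicates 1 to 3. The groups did not overlap, but the lowest WT library was only 1.04 times the highest MSTN-KO library. The log2 fold change was -0.45 (95% interval -0.79 to -0.11, limma adjusted p = 0.0636). The gene passed without WT replicate 3, where the adjusted p was 0.0244, with quantile normalization (0.0377), with libraries scaled by their percentile 75 (0.0411) or to 1000000 in sum (0.0102), and with a correction for length and GC content (0.0132).

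*Trdn* (ENSMUSG00000019787, chromosome 10, 33080554 to 33476709, plus strand) encodes triadin, which links calsequestrin to the release channel. *Trdn* measured 0.0180, 0.0281 and 0.0296 FPKM in WT replicates 1 to 3, and it was 0.0102 FPKM in MSTN-KO replicate 1 and listed at 0 in MSTN-KO replicates 2 and 3. These values stand for an estimated 1, 2 and 3 fragments in WT and 1, 0 and 0 in MSTN-KO, so a difference was not detectable at this depth. Without the filter the limma adjusted p was 0.527.

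**Figure D2:**
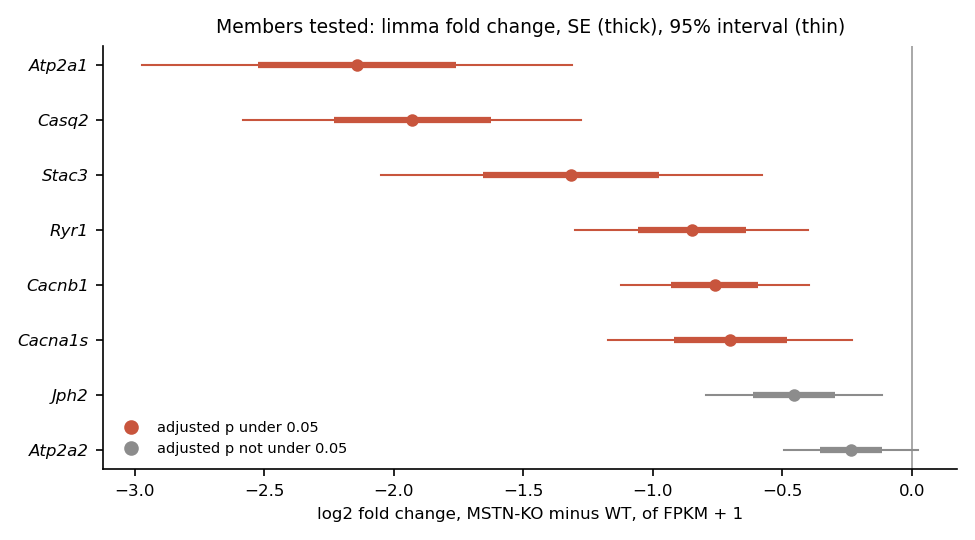
limma log2 fold change, MSTN-KO minus WT, of the 8 tested members on the log2(FPKM + 1) scale, with SE as thick bars and 95% intervals as thin bars. Red marks an adjusted p under 0.05 and grey the others. *Atp2a1* at -2.14 and *Casq2* at -1.93 lie farthest from 0, and the interval of *Atp2a2* reaches from -0.49 to 0.02.

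*Casq2* (ENSMUSG00000027861, chromosome 3, 102086415 to 102146514, plus strand) encodes the calsequestrin of cardiac and slow fibres, which is also made early in muscle development. *Casq2* measured 5.49, 8.32 and 2.09 FPKM in WT replicates 1 to 3, against 0.514, 0.420 and 0.575 FPKM in MSTN-KO replicates 1 to 3. The WT libraries differed widely, but even WT replicate 3 stood 3.64 times above the highest MSTN-KO library. The mean of 5.30 ± 3.12 FPKM in WT was 10.5 times that of 0.503 ± 0.0781 in MSTN-KO (SD, n = 3 each). The log2 fold change was -1.93 (SE 0.30, limma adjusted p = 0.000923), and it passed whichever library was left out.

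*Casq1* (ENSMUSG00000007122, chromosome 1, 172209894 to 172219868, minus strand) encodes the calsequestrin of fast fibres. *Casq1* measured 0.186, 0.579 and 0.472 FPKM in WT replicates 1 to 3, against 0.0707, 0.0882 and 0.0308 FPKM in MSTN-KO replicates 1 to 3, an estimated 6, 21 and 17 fragments in WT and 2, 3 and 1 in MSTN-KO. The lowest library of WT was replicate 1 here, and it stood above all MSTN-KO libraries. The gene stayed under the filter, and without the filter its log2 fold change was -0.40 (limma adjusted p = 0.0467). *Casq1* made up 3.27%, 6.51% and 18.4% of the summed calsequestrin FPKM in WT and 12.1%, 17.3% and 5.08% in MSTN-KO. These shares overlapped between the groups. *Casq2* made up 81.6% to 96.7% and was the main calsequestrin RNA in each library of both groups. On the log2(FPKM + 1) scale, the *Casq1* to *Casq2* ratio was higher by 1.53 in MSTN-KO (two-sided exact permutation test, p = 0.1, the smallest that 3 against 3 allows), but with no pseudocount the difference was 0.51 (exact permutation p = 0.8).

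*Atp2a1* (ENSMUSG00000030730, chromosome 7, 126445858 to 126463108, minus strand) encodes SERCA1, the calcium pump of fast fibres. *Atp2a1* measured 17.8, 19.8 and 4.23 FPKM in WT replicates 1 to 3, against 1.72, 1.78 and 2.14 FPKM in MSTN-KO replicates 1 to 3. The first 2 WT replicates were far above all others, and WT replicate 3 was 1.98 times the highest MSTN-KO library. The mean was 13.9 ± 8.47 FPKM in WT and 1.88 ± 0.228 in MSTN-KO (SD, n = 3 each), a ratio of 7.41. The log2 fold change of -2.14 (SE 0.38, limma adjusted p = 0.00236) ranged from -2.78 to -1.79 when 1 library was left out, and it passed in all 6 of these fits. Exons of *Rabep2* on the opposite strand overlap 763 bases of *Atp2a1*, and whether the counting used strand is not given in the sources used here. *Rabep2* was at 11.5 to 13.6 FPKM in WT and 14.5 to 16.5 FPKM in MSTN-KO, the opposite order to *Atp2a1*.

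*Atp2a2* (ENSMUSG00000029467, chromosome 5, 122453513 to 122502225, minus strand) encodes SERCA2, the pump of slow and cardiac muscle and, in another splice form, of most cells. *Atp2a2* measured 79.0, 70.0 and 66.2 FPKM in WT replicates 1 to 3, against 60.3, 61.8 and 59.8 FPKM in MSTN-KO replicates 1 to 3. The libraries lay close together, with the lowest WT library 1.07 times the highest MSTN-KO library. The log2 fold change was -0.24 (95% interval -0.49 to 0.02, limma adjusted p = 0.192). It passed with quantile normalization (adjusted p = 0.0499) and with scaling to a sum of 1000000 (0.0106). The tables give 1 value per gene, so splice forms were not analysed here.

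The make-up of each family of paralogs was compared within libraries, as shares of summed FPKM. *Atp2a1* was 18.3%, 22.0% and 5.99% of the summed SERCA FPKM in WT and 2.76%, 2.80% and 3.45% in MSTN-KO, with no overlap. The log2 ratio of *Atp2a1* to *Atp2a2*, each as FPKM + 1, was -2.09, -1.77 and -3.68 in WT and -4.50, -4.49 and -4.27 in MSTN-KO. It was lower by 1.91 in MSTN-KO (two-sided exact permutation test, p = 0.1, the smallest possible), and by 2.37 with no pseudocount. Of the summed FPKM of voltage sensor beta subunits, *Cacnb1* was 12.8% to 15.5% in WT and 7.89% to 9.61% in MSTN-KO. *Stac3* was 13.9% to 31.0% of the STAC family in WT and 6.03% to 12.1% in MSTN-KO. *Jph2* made up 93.8% to 95.8% of junctophilin FPKM in all 6 libraries, with overlap between groups. *Ryr1* was 95.2% to 97.3% of ryanodine receptor FPKM in WT and 84.4% to 90.8% in MSTN-KO, beside *Ryr3* at 0.121 and 0.155 FPKM on average.

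**Figure D3:**
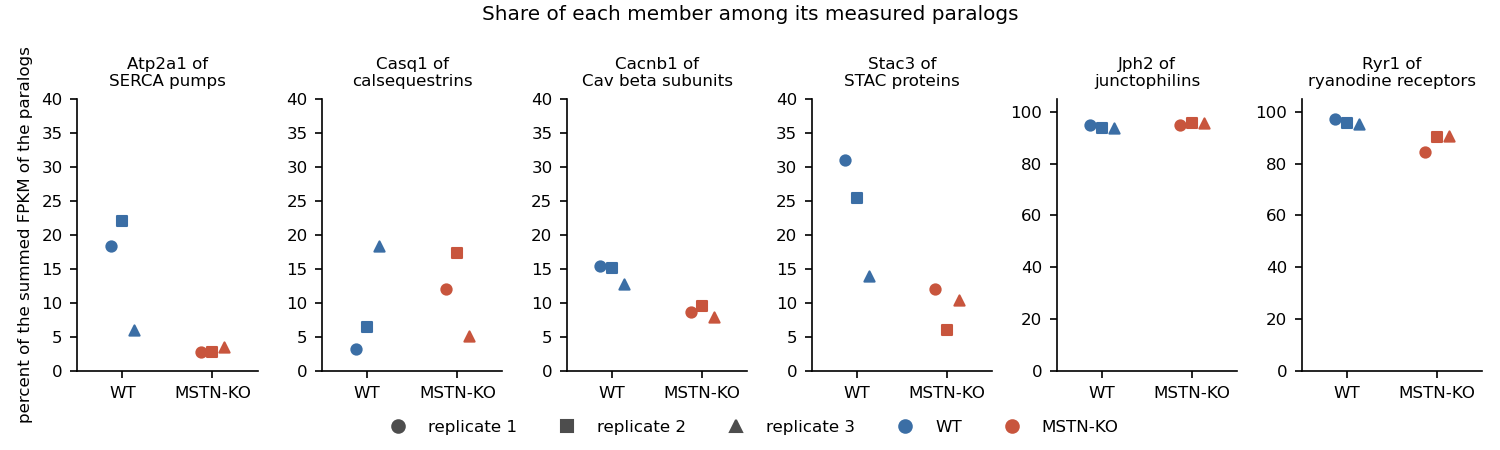
Share of each of 6 members in the summed FPKM of its measured paralogs, in percent, for each library. The first 4 panels run from 0 to 40% and the last 2 to just above 100%, with blue for WT, red for MSTN-KO and shapes for replicates. *Atp2a1* stands at 5.99% to 22.0% in WT and at 2.76% to 3.45% in MSTN-KO, and the *Casq1* shares of the groups overlap.

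WT replicate 3 had the lowest WT value for 8 of the 10 genes, the exceptions being *Casq1* and *Trdn*. It held 18.4% of the mean of the other WT libraries for *Cacna1s*, 22.5% for *Atp2a1*, 30.3% for *Casq2*, 37.2% for *Stac3*, 48.7% for *Ryr1* and 67.8% for *Cacnb1*. Markers of muscle differentiation were also lower in WT replicate 3 than in the other WT libraries, with the exception of *Mef2c*. *Myog*, the gene of the differentiation factor myogenin, measured 175, 148 and 47.3 FPKM in WT replicates 1 to 3, against 7.33, 10.2 and 11.6 FPKM in MSTN-KO replicates 1 to 3. Of the 9 differentiation markers in the tables, 8 were tested and all 8 fell, where 8.96% of all genes tested did. Their median change was -2.71. Of the 8, *Ckm* and *Myh3* reached 1 FPKM only in WT and so were tested because of the group in which they were higher. The 9 markers summed to 220 to 790 FPKM in WT and 32.7 to 58.4 FPKM in MSTN-KO. The 4 fibroblast markers in the tables summed to 183 to 256 FPKM in WT and 321 to 386 FPKM in MSTN-KO. Most of this sum was *Col3a1*, with a mean of 217 FPKM in WT and 346 FPKM in MSTN-KO. *Col3a1* rose and *Dcn* fell, while *Col1a1* did not pass (limma adjusted p = 0.196) and *Pdgfra* was not tested. Of the 2 adipocyte markers in the tables, *Plin1* was at 0 in 5 libraries and *Fabp4* rose (limma adjusted p = 0.00924). *Fabp4* lay between 0.147 and 0.324 FPKM in WT and between 0.919 and 1.76 FPKM in MSTN-KO. It reached 1 FPKM only in MSTN-KO and so was tested because of the group in which it was higher. The part of these differences in the members' change was not tested. Without WT replicate 3, 7 members passed, with *Jph2* added, where 7.39% of all genes tested were lower, and the log2 fold change was -2.78 for *Atp2a1*, -2.37 for *Casq2*, -1.75 for *Stac3* and -1.10 for *Ryr1*. Without WT replicate 1, 3 members passed, where 6.14% of all genes tested were lower.

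**Figure D4:**
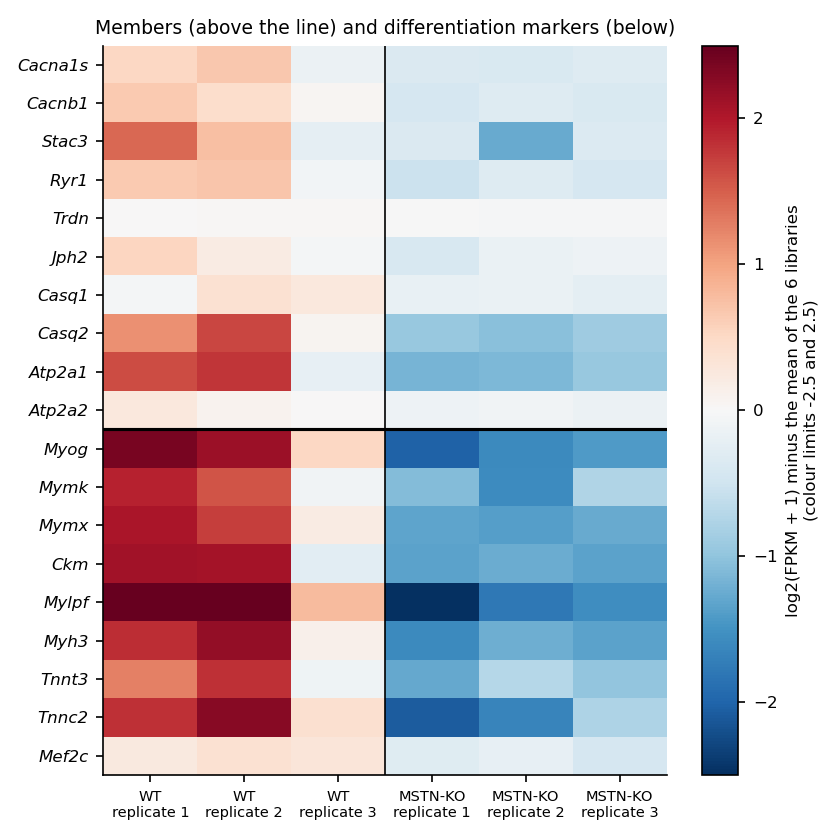
log2(FPKM + 1) of each member, above the black line, and of 9 markers of muscle differentiation, below it, minus the gene's mean over the 6 libraries. Columns are libraries, with WT left of the vertical line, and colours run from blue (lower) to red (higher) with limits at -2.5 and 2.5. WT replicate 3 lies between the other WT libraries and the MSTN-KO libraries in most rows, and *Trdn* is nearly white because its FPKM is near 0.

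Because FPKM is per length, the levels of the 10 genes can be ordered. In WT the order of mean FPKM was *Atp2a2*, *Jph2*, *Stac3*, *Atp2a1*, *Cacnb1*, *Casq2*, *Ryr1*, *Cacna1s*, *Casq1* and *Trdn*. Among neighbours in this order, only *Jph2* and *Stac3*, *Ryr1* and *Cacna1s*, and *Casq1* and *Trdn* had ranges that did not overlap. In MSTN-KO, *Atp2a1* and *Casq2* each moved 1 place down, behind *Cacnb1* and *Ryr1*, and *Cacna1s* moved behind *Casq1*. There the ranges of *Stac3* and *Cacnb1*, of *Casq1* and *Cacna1s*, and of *Cacna1s* and *Trdn* overlapped, and the other neighbours were apart. The 10 genes summed to 138 to 224 FPKM in WT and 113 to 122 FPKM in MSTN-KO, most of it from *Atp2a2* and *Jph2*.

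Other genes of the pathway were counted in 7 lists, of which 65 of 77 genes were in the tables and 49 were tested. Among these, 16 fell and 1 rose, with a median change of -0.20, beside 8.96% lower and 8.78% higher of all genes tested. Of the 16, 6 reached 1 FPKM only in WT. Among the triad and T-tubule proteins, 8 of 12 tested genes were lower and none higher, with a median of -0.69. Of these 8, 5 (*Trim72*, *Klhl40*, *Hrc*, *Cav3* and *Dysf*) reached 1 FPKM only in WT and so were tested because of the group in which they were higher. *Trim72*, a membrane repair protein, was at 5.84, 5.71 and 2.01 FPKM in WT and 0.168, 0.275 and 0.0751 FPKM in MSTN-KO, which was -2.14 as log2 fold change (limma adjusted p = 0.000154). *Srl*, the sarcalumenin of the store's lumen, changed by -1.86 (limma adjusted p = 0.00123), and *Klhl40*, which stabilises thin filament proteins, by -1.11 (limma adjusted p = 0.00572). *Cav3*, the caveolin of muscle, was at 0.598, 1.18 and 0.473 FPKM in WT and listed at 0 in each MSTN-KO library. *Jph1*, the other junctophilin of skeletal muscle, was at 3.25 ± 0.331 FPKM in WT and 1.86 ± 0.0130 in MSTN-KO (SD, n = 3 each, limma adjusted p = 0.0223).

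The partners of the voltage sensor and release channel moved both ways, with 2 of 8 tested genes lower, 1 higher and a median of 0.02. *Fkbp1b*, which binds and steadies ryanodine receptors, was at 3.71, 4.94 and 3.26 FPKM in WT and 1.19, 1.71 and 1.30 FPKM in MSTN-KO. Its log2 fold change reached -1.04 (limma adjusted p = 0.00163). *Cacng1*, the gamma subunit of the voltage sensor, was at 128 to 197 FPKM in WT and 93.3 to 127 FPKM in MSTN-KO (-0.59 on the log2 scale, limma adjusted p = 0.0273). *S100a1*, a calcium-binding protein that acts on the release channel, was higher in MSTN-KO, at 127 to 165 FPKM compared with 79.4 to 110 FPKM in WT (0.59 on the log2 scale, limma adjusted p = 0.0165). It did not pass without WT replicate 3, without MSTN-KO replicate 3 or with libraries scaled to 1000000 in sum.

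**Figure D5:**
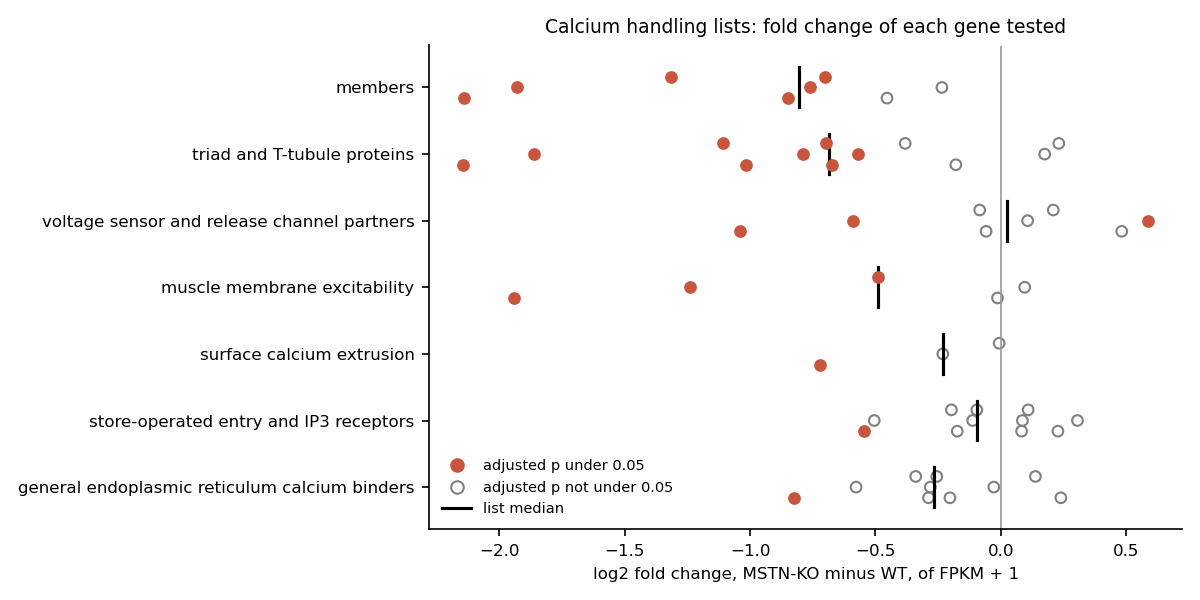
log2 fold change, MSTN-KO minus WT, on the log2(FPKM + 1) scale for the tested members and the tested genes of 6 further lists, 1 row per list and 1 point per gene. Filled points had an adjusted p under 0.05 and vertical bars give list medians, -0.81 for the members and -0.69 for triad and T-tubule proteins. The vertical spread within a row only separates points, and the pump regulators are missing because none of them was tested.

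The remaining lists hold calcium handling genes that most cells use and genes of membrane excitability, and the counts of 1 in 11 and 1 in 10 lie near the 8.96% of all genes. Of 11 tested genes of store-operated entry and IP3 receptors, 1 fell, *Orai1*, the channel that refills the store from outside (log2 fold change -0.55, limma adjusted p = 0.0319). Of 10 general calcium binders of the endoplasmic reticulum, *Rcn3* fell by 0.83 on the log2 scale (limma adjusted p = 0.00151), with 32.2 to 32.6 FPKM in WT and 16.2 to 21.5 FPKM in MSTN-KO. Of 3 tested genes of calcium extrusion at the surface, *Atp2b4* fell (log2 fold change -0.72, limma adjusted p = 0.0222). Of 5 tested genes of membrane excitability, 3 fell, among them *Atp1b1*, a beta subunit of the sodium pump (log2 fold change -0.49, limma adjusted p = 0.0397). The pump paralog *Atp2a3* and the pump inhibitor *Pln* stayed at or below 0.306 FPKM and were not tested, and the other 4 pump regulators were not matched.

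The 5 genes outside the list whose deviations over the 6 libraries lay nearest to the members' median deviation were *Dusp27*, *Slc2a6*, *Csdc2*, *AI464131* and *Ppfia4*, at Euclidean distances of 0.185 to 0.223 on the log2(FPKM + 1) scale. *Dusp27*, the nearest, measured 6.69, 6.53 and 3.96 FPKM in WT replicates 1 to 3, against 3.45, 3.27 and 3.39 FPKM in MSTN-KO replicates 1 to 3. It was lowest within WT in replicate 3, and its groups did not overlap. The genes were picked by nearness to the members over these same libraries, so this likeness follows from the choice.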

How the data were processed

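RNA-seq of 3 WT and 3 MSTN-KO libraries was analysed. The deposited values are FPKM, which the authors made for each gene in 1 file per library, with replicates kept apart. The submitters' processing notes name Bowtie 0.12.2 and the genome build mm8 without a role. The annotation, the counting tool and any gene filter are not given in the sources used here. The files hold gene identifiers and no coordinates, so genes were placed by the GENCODE M21 annotation of GRCm38, which matched 14445 of 14548 identifiers (99.3%), and promoters came from RefSeq. The members and all gene lists were chosen with earlier results of these data known.

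Genes reaching 1 FPKM in any of the 6 libraries, 10837 in all, entered a limma 3.58.1 fit of log2(FPKM + 1) under R 4.3.3 (eBayes with trend, 1 coefficient for the group), and genes were called at a Benjamini-Hochberg adjusted p of 0.05 over all genes tested. Because of the added 1, low genes show smaller fold changes than their FPKM do. Ratios of paralogs were compared by two-sided exact permutation tests over all regroupings of the 6 libraries. All members were named, and other genes of a list were named when past the threshold with the largest change (up to 3 a list and direction) or for their role. The values of a few list genes are not reported here. The files hold no counts. Depth was estimated from the smallest steps of FPKM times length in genes with 1 transcript, and fragments per gene follow from it. They are estimates with no counting interval. Shared sequence was searched with blastn 2.17.0 for exact stretches of at least 50 bases. Simulated data of 10837 genes, 200 of them changed, were used to test the fit. It recovered 98% of those changed by 2 and 81% of those changed by 1 on the log2 scale, with 9 false calls. The changed genes had a WT mean above 2 on the log2(FPKM + 1) scale. The noise was normal, independent between genes and libraries, and of equal SD in both groups. These figures therefore do not cover genes as low as *Cacna1s*, or members whose WT libraries spread more than the MSTN-KO libraries. Alternatives were a pseudocount of 0.1, other filters and scalings, no trend, a smooth correction for length and GC content (mgcv 1.9.3), a replicate block, the study's rule for DEGs and leaving out each library. The study's rule here means its cutoffs applied to the limma fit above. Other steps used Python 3.11.15, numpy 2.4.6, scipy 1.17.1, pandas 2.3.3 and matplotlib 3.10.9.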

Additional observations from a re-analysis of the deposited data

How the results depend on the processing

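Directions were the same in every setting run for the 8 tested members and both ratios. Leaving out 1 library could not reverse them, because the groups overlapped for none of these. A change of filter, trend, block or calling rule left the fold changes themselves as they were. Of 134 settings of the 8 fold changes, 111 stayed on their side of the threshold, 15 lost it and 8 gained it. Settings in which *Cacna1s* failed the filter are not among them. These were the fit without WT replicate 2 and the filter on a mean of at least 1 FPKM. The count of members lower in MSTN-KO, 6 in the deposited values, was 3 under the study's rule for DEGs and 3 to 7 when 1 library was left out, lowest without WT replicate 1 and highest without WT replicate 3. The count of 16 lower genes in the wider lists became 25 with scaling to a sum of 1000000, 7 under the study's rule and 9 to 15 when 1 library was left out, with 9 without WT replicate 1 and 10 without WT replicate 2. The single higher gene in the wider lists became 2 with no filter or no trend, 3 with quantile normalization and 4 with length and GC correction. The count was 0 with scaling to 1000000 or the study's rule, and 0 to 1 when 1 library was left out. Over all genes, the 952 higher calls became 720 with no filter and 836 with no trend. They became 971 with quantile normalization and 1329 with length and GC correction. Scaling to 1000000 gave 350, the study's rule 131, and leaving out 1 library 423 to 1184. The cause was not tested. Same-numbered libraries did not deviate together (correlations of -0.0153, -0.128 and -0.142), which gave no sign of pairing. With so few libraries this cannot show whether they were handled as pairs, and the labels do not say. With the replicate block, 6 members and 16 list genes were lower and 1 list gene was higher. Over all genes, 1001 were then lower and 939 higher. The ratio differences of -1.91 for pumps and 1.53 for calsequestrins each had an exact p of 0.25 with the block. With the replicate block and length and GC correction, 7 members and 17 list genes were lower and 3 list genes higher. Over all genes, 1047 were then lower and 1184 higher. Ratios with no pseudocount, chosen after seeing the data, differed by -2.37 for pumps and 0.51 for calsequestrins. With the pseudocount of 1, leaving out 1 library gave -2.49 to -1.54 and 1.26 to 2.01. Low FPKM limits *Casq1*, *Trdn* and *Cacna1s*, at a few estimated fragments in MSTN-KO.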

Other observations

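In 5 pairs of paralogs, all chosen with their values known, the log2(FPKM + 1) ratio was compared between the groups. Each difference had an exact permutation p of 0.1 (two-sided, 0.1 after Benjamini-Hochberg adjustment over the 5 pairs). That is the smallest that 3 libraries against 3 can give, and because of how the pairs were chosen it is no independent support. The calsequestrin difference went from 1.53 to 0.51 with no pseudocount (exact permutation p = 0.8). Beside the pumps and calsequestrins, *Cacnb1* against *Cacnb3* was lower by 0.70 in MSTN-KO and *Stac3* against *Stac2* was lower by 1.42. *Tmem38a* against *Tmem38b*, both cation channels of the store membrane, was lower by 0.87, with *Tmem38a* at 19.2 ± 5.47 FPKM in WT and 11.2 ± 1.73 in MSTN-KO and *Tmem38b* at 5.89 ± 0.723 and 6.78 ± 0.830 (SD, n = 3 each).

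Among 4 cardiac markers looked at because *Casq2* and *Atp2a2* are also cardiac genes, *Nkx2-5*, a transcription factor of heart development, measured 0.847, 1.56 and 1.25 FPKM in WT replicates 1 to 3, against 19.4, 19.0 and 21.9 FPKM in MSTN-KO replicates 1 to 3 (log2 fold change 3.26, limma adjusted p = 3.76e-08). The groups were far apart and WT replicate 3 did not stand between them. *Myh6* and *Nppa* stayed at or below 0.167 FPKM in all 6 libraries. *Rcn3*, a calcium binder of the endoplasmic reticulum that was lower in MSTN-KO, was even across WT, at 32.2, 32.6 and 32.5 FPKM.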
